A study of Mus musculus with 6 samples.

Results

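Barx1, Isl1, Six2, Pitx1, Gata3 and Osr1, transcription factor genes with known roles in the mesenchyme of the stomach and pylorus, were followed in cultured cells of mouse embryonic gut. They were chosen for those roles, and all 6 were found among the 12393 genes measured. They were read by 8 probe sets, and the brightest on average gave the main reading of each gene. RNA came from C57BL/6 stomachs and intestines taken at embryonic day 13.5, digested with proteases to leave fewer endoderm cells and cultured for 3 days in medium with 20% serum. Each of the 3 groups (stomach, intestine and Barx1 intestine) was hybridised to 2 Affymetrix 3′ arrays, labelled as biological replicates. Embryos of the Barx1 intestine group carried both Rosa26+/Barx1 and Bapx1+/Cre, so that Cre made from the Bapx1 (Nkx3-2) locus switched on Barx1 from Rosa26. Control embryos, for stomach and intestine alike, carried either Rosa26+/Barx1 or Bapx1+/Cre alone, and the labels do not say which allele each array's embryos had. They also do not say whether embryos were pooled. Cre acts where Nkx3-2 is or was expressed, so other cells of the culture need not carry active Barx1.

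The mesenchyme of the embryonic gut is patterned along its length by transcription factors that mark the stomach, the pyloric sphincter and the intestine. BARX1 is a homeodomain protein of the stomach mesenchyme that restrains Wnt signalling beside the stomach endoderm. ISL1, a LIM-homeodomain protein, and GATA3, a zinc finger protein, are needed for the smooth muscle of the pylorus, and SIX2, a homeodomain protein, marks and shapes the pyloric region. PITX1 is a paired-type homeodomain protein best known from the hindlimb and pituitary, and OSR1 is a zinc finger protein of intermediate and foregut mesoderm. The title of the series concerns the control of stomach smooth muscle development by BARX1. The comparisons below show how far these regulators separate stomach from intestine and which of them differ where Barx1 is switched on in the intestine.

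All values are log2 expression values, so a difference of 1 is a doubling of signal. Array medians lay between 6.93 and 6.98 and lower quartiles between 4.72 and 4.76. Replicates differed with an SD over genes of 0.149 for stomach, 0.232 for intestine and 0.199 for Barx1 intestine. Precision is limited by having 2 arrays a group. In RNA from whole cultures, fewer cells of a type and less RNA per cell cannot be told apart. The labels do not say whether the replicates came from separate litters or cultures, so p-values measure the spread between these arrays.

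The tissue label was read against markers of the cell types that the cultures could hold. The 10 genes of mesenchyme and smooth muscle averaged 11.77 to 12.57 over the arrays, with none at or below the lower quartile. Pancreas markers averaged 4.33 to 4.55, and 3 of the 5, Gcg, Chga and Neurod1, lay at or below the lower quartile on every array. Epithelial markers were present, at a mean of 7.02 and 7.73 on the stomach arrays, 8.92 and 8.11 on the intestine arrays, and 7.93 and 7.38 on the Barx1 intestine arrays. Leukocyte markers averaged 7.70 and 7.46 on the stomach arrays, 8.04 and 8.91 on the intestine arrays, and 6.52 and 7.24 on the Barx1 intestine arrays. The 7 measured markers of enteric neurons and glia averaged 7.28 and 7.19 on the stomach arrays, 7.78 and 7.87 on the intestine arrays, and 6.51 and 6.76 on the Barx1 intestine arrays. The mean of the 5 endothelial markers ranged from 4.55 to 5.14 over the arrays and that of the 3 mesothelial ones from 5.47 to 5.91. The leukocyte and neural lists were therefore lowest in Barx1 intestine, where Isl1, Six2, Pitx1 and Gata3 were higher than in intestine. Those lists, and the epithelial and endothelial ones, were highest in intestine, where Barx1, Isl1, Six2, Pitx1 and Osr1 were lowest. The part of these lists in the results was not tested.

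**Figure D1:**
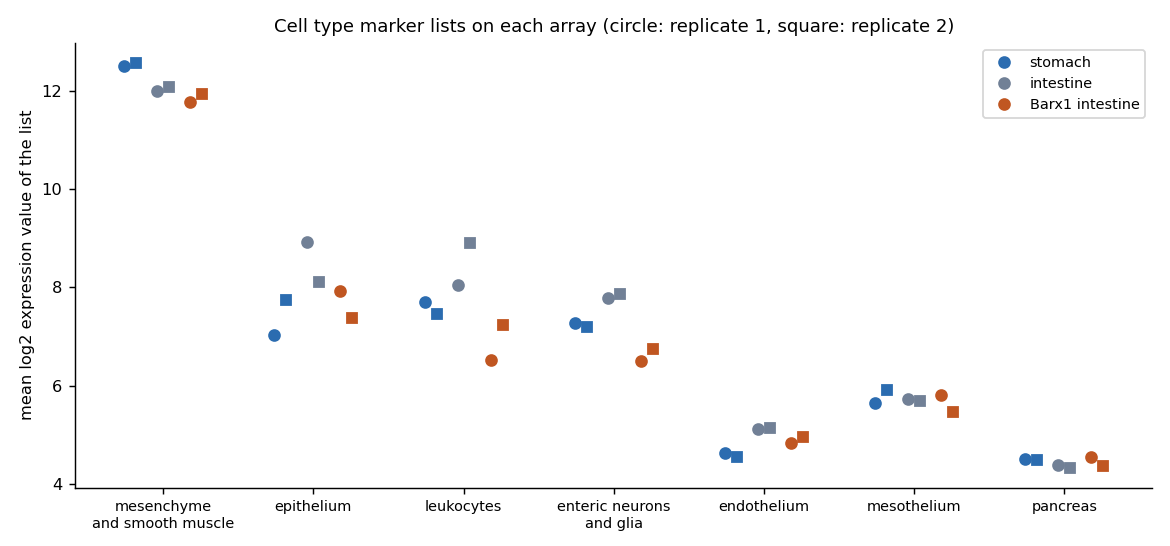
Mean log2 expression value of each cell type marker list on each array, with stomach in blue, intestine in grey and Barx1 intestine in orange (circles replicate 1, squares replicate 2). Mesenchyme and smooth muscle genes lie at 11.77 or above on all arrays, and the leukocyte and neural lists are lowest on the Barx1 intestine arrays.

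The 6 genes fell into 3 patterns over the 3 groups. Barx1, Isl1, Six2 and Pitx1 were high in stomach, low in intestine and high again in Barx1 intestine. Gata3 was low in both control groups and was higher in Barx1 intestine alone. Osr1 was highest in stomach, and its level in Barx1 intestine stayed near that of intestine. Of the 6 genes, 5 rose in stomach against intestine and 0 fell, where 16.9% of all genes were called, 8.86% as higher and 8.09% as lower. In Barx1 intestine against intestine 5 also rose and 0 fell, where 3.98% of all genes were called, 1.86% as higher and 2.12% as lower. Barx1 is among these 5, and its rise was set by the design. Both comparisons use the same intestine arrays, and the 5 genes differ: Osr1 belongs to the former set and Gata3 to the latter. In Barx1 intestine against stomach 1 was higher and 2 were lower, where 5.20% of all genes were called, 2.56% as higher and 2.64% as lower. The 6 genes were chosen with earlier results of these data known, so the counts are only a description. A gene was called at an adjusted p under 0.05 in a limma fit of all 6 arrays, adjusted by Benjamini-Hochberg over all 12393 genes. Fits that leave out 1 array are given below. Where that array belongs to a compared group, the lone array left is assumed to vary like the other groups. In Barx1 intestine against stomach, the fit without stomach replicate 2 left no call for any gene of the series. A call lost in that fit therefore cannot tell 1 gene from another. Leaving out either array of the third group gives the same fit, so 1 fit counts 2 times among the 6.

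**Figure D2:**
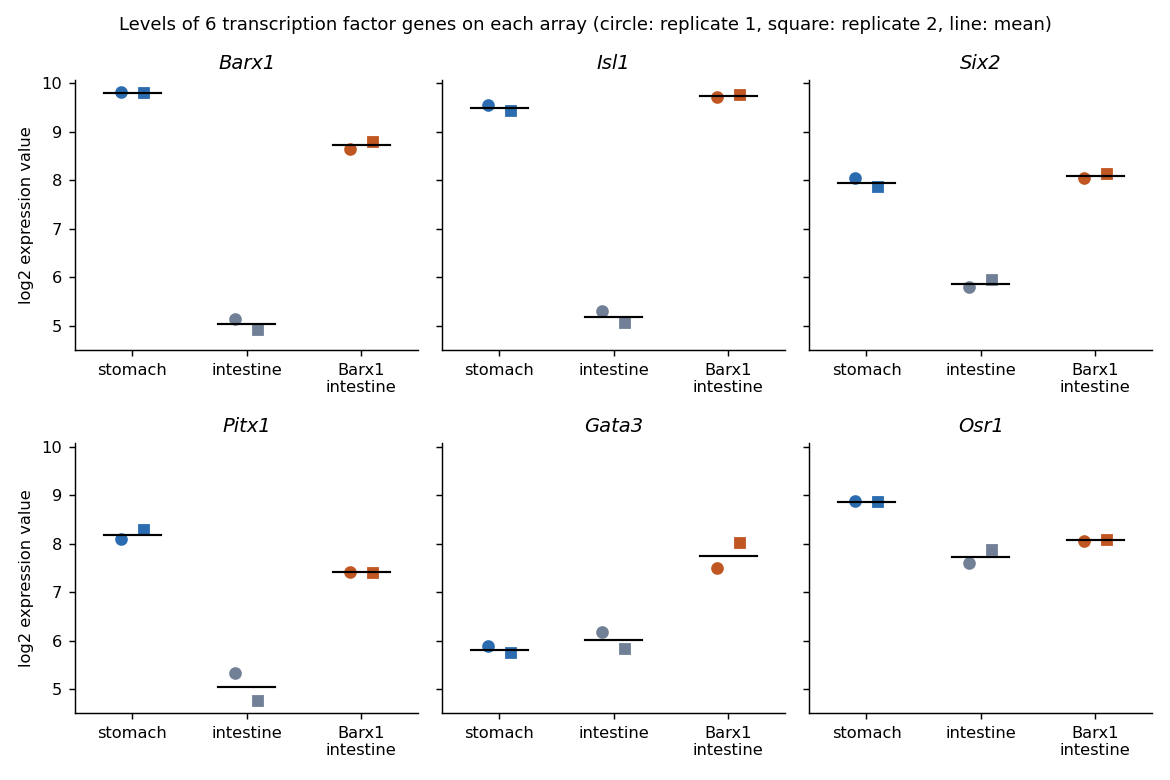
Log2 expression value of each gene on each array by group (circles replicate 1, squares replicate 2, line the group mean). Barx1, Isl1, Six2 and Pitx1 read below 6 on both intestine arrays and above 7 on all others, Gata3 exceeds 7 on the Barx1 intestine arrays alone, and Osr1 is highest in stomach.

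Barx1 was read first, as the gene that the model expresses. It read 9.82 and 9.79 on the stomach arrays, 5.13 and 4.93 on the intestine arrays, and 8.66 and 8.79 on the Barx1 intestine arrays. Barx1 intestine lay above intestine, as its label implies, and below stomach, with no overlap between any of the groups. Its difference between stomach and intestine, 4.78 (SE 0.09, adjusted p = 0.000114 by limma), ranked first of all genes. The rise with the transgene, 3.69 (SE 0.09, adjusted p = 0.000207), was set by the design and ranked second. Against stomach the Barx1 intestine was lower by a difference of -1.08 (95% interval -1.31 to -0.85, adjusted p = 0.0120). Leaving out stomach replicate 1, stomach replicate 2 or Barx1 intestine replicate 1 ended this last call (adjusted p = 0.0817, 0.108 and 0.0718 in turn). The intestine readings lay at the 27.3 and 29.9 percentile of their arrays and may be background, so that differences from them may understate the change. The probe set cannot separate transcripts of the transgene from those of the endogenous gene.

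Isl1, which pyloric smooth muscle requires, was the gene with the largest rise of all 12393 in Barx1 intestine, above Barx1 itself, when read from its brighter probe set. It read 9.56 and 9.43 on the stomach arrays, 5.31 and 5.06 on the intestine arrays, and 9.72 and 9.75 on the Barx1 intestine arrays. Both Barx1 intestine arrays thus lay above both stomach arrays, and the intestine arrays stood far below all others. The rise over intestine was 4.56 (95% interval 4.31 to 4.80, adjusted p = 0.000207 by limma), or 23.5-fold. The intestine readings lay at the 28.8 and 31.7 percentile of their arrays and may be background, so the size may understate the change and its rank is uncertain. Stomach exceeded intestine by 4.31 (SE 0.10, adjusted p = 0.000114), the second largest excess of any gene. Between Barx1 intestine and stomach the difference was 0.24 (95% interval -0.0023 to 0.49, adjusted p = 0.209), so an excess of up to 0.49 in Barx1 intestine lies within the interval. Leaving out any 1 array kept both calls against intestine, with adjusted p at most 0.00708. Isl1 is also a gene of enteric neurons and of pancreatic islets. Of the 7 measured markers of enteric neurons and glia, 3 fell in Barx1 intestine against intestine and 0 rose (list median -1.22). Over all genes 2.12% were called lower and 1.86% higher in that comparison. Sox10, Ednrb and Erbb3 fell by 1.58, 3.17 and 2.60 on the log2 scale (adjusted p = 0.0252, 0.0204 and 0.00418). In fits without 1 array, Erbb3 was past the threshold in 6 of 6, Sox10 in 2 and Ednrb in 1. These 3 are genes of glia and neural crest. The neuronal genes Ret, Uchl1 and Elavl4 differed by 0.15, 0.10 and -0.03 without a call, and Tubb3 by -1.22 (adjusted p = 0.0840). Pdx1, a gene of the pancreas, read 5.19 to 5.32 on all arrays.

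A second probe set of Isl1 gave the same order of groups at lower levels. It read 8.17 and 8.26 on the stomach arrays, 5.26 and 5.70 on the intestine arrays, and 8.37 and 8.44 on the Barx1 intestine arrays. In a fit over 20380 probe sets its rise over intestine was 2.92 (SE 0.15, adjusted p = 0.00235), against 4.56 for the brighter one. That rise ranked 5 of all probe sets, below Barx1. Stomach exceeded intestine by 2.74 (SE 0.15, adjusted p = 0.00126). The size of the change in Isl1 therefore depended on the probe set by a log2 of more than 1, while the order of the groups did not.

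Six2, a homeobox gene of the pyloric region, followed the same course with smaller differences. It read 8.04 and 7.86 on the stomach arrays, 5.79 and 5.94 on the intestine arrays, and 8.04 and 8.13 on the Barx1 intestine arrays. The stomach and Barx1 intestine arrays lay close together and all far above the intestine arrays. The rise in Barx1 intestine over intestine was 2.22 (SE 0.09, adjusted p = 0.00164 by limma), or 4.65-fold, and ranked 7 of all genes. Stomach exceeded intestine by 2.09 (SE 0.09, adjusted p = 0.000891). The difference between Barx1 intestine and stomach was 0.13 (95% interval -0.09 to 0.36, adjusted p = 0.423). Differences from intestine stayed past the threshold without any 1 array, with adjusted p at most 0.0285.

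Because Isl1 and Six2 had, with Barx1, the smallest p-values of the 6 genes in both comparisons with intestine, the 250 bases before their annotated starts are shown (RefSeq, GRCm38.p6). Capitals mark TAAT or its reverse complement ATTA, the core that many homeodomain proteins bind, searched on both strands. The Isl1 window lies at chr13:116309689-116309938 and the Six2 window at chr17:85688255-85688504, both on the minus strand and written 5′ to 3′ in the direction of the gene.
Isl1: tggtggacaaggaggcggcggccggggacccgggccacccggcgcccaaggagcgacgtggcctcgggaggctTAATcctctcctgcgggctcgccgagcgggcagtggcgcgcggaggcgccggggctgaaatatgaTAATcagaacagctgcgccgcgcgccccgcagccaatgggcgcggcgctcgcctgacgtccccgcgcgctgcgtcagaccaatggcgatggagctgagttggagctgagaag
Six2: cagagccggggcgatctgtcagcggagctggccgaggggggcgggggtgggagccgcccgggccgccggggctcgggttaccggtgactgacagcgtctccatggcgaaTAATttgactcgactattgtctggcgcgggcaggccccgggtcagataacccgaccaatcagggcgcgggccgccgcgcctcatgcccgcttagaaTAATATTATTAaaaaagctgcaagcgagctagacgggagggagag
The Isl1 window held 2 matches and the Six2 window 4, of which 3 adjoin or overlap in 1 run close to the start. Of 12567 such windows of genes on the array, 43.0% held at least 1 match, 19.5% at least 2 and 4.71% at least 4. RefSeq windows were matched for 4 of the 6 genes, and those of Barx1 and Gata3, held 0. A match is a string of letters and not a measured site, and no match says only that these letters are not in the window.

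Pitx1, a paired-type homeobox gene, was also higher in both stomach and Barx1 intestine than in intestine. It read 8.09 and 8.28 on the stomach arrays, 5.34 and 4.76 on the intestine arrays, and 7.43 and 7.39 on the Barx1 intestine arrays. The groups did not overlap, and the Barx1 intestine arrays lay between the other groups. The intestine replicates differed by 0.59, the widest gap between replicates of any of the 6 genes. Stomach exceeded intestine by 3.13 (SE 0.19, adjusted p = 0.00192 by limma) and Barx1 intestine exceeded it by 2.36 (SE 0.19, adjusted p = 0.00905), or 5.14-fold. The intestine readings, at the 25.4 and 32.2 percentile, may be background here too. Leaving out replicate 1 or replicate 2 of the Barx1 intestine ended the latter call (adjusted p = 0.0694 and 0.0533). Against stomach the difference was -0.77 (95% interval -1.25 to -0.30, adjusted p = 0.0811). This comparison was past the threshold without either intestine array or with only the 4 arrays compared (adjusted p = 0.0232), and with the mean of both probe sets (-0.66, adjusted p = 0.0302).

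The dimmer probe set of Pitx1 gave smaller differences. It read 6.54 and 6.77 on the stomach arrays, 5.28 and 5.60 on the intestine arrays, and 6.24 and 5.97 on the Barx1 intestine arrays. The order of the groups was that of the brighter probe set. Stomach exceeded intestine by 1.21 (SE 0.15, adjusted p = 0.00846 over 20380 probe sets). The Barx1 intestine differed from intestine by 0.67 (SE 0.15, adjusted p = 0.0788), which did not pass. The induction of Pitx1 in Barx1 intestine was thus called by 1 of its 2 probe sets.

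**Figure D3:**
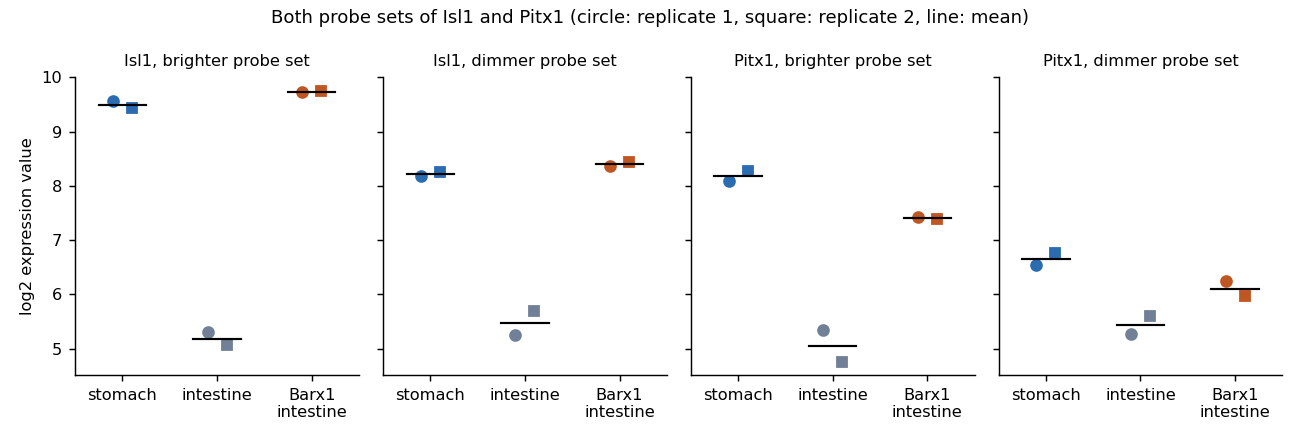
Log2 expression values of the brighter and dimmer probe sets of Isl1 and Pitx1 on each array (circles replicate 1, squares replicate 2, line the group mean). Both probe sets of each gene place intestine lowest, and the dimmer ones show smaller differences, 2.92 against 4.56 for Isl1 and 0.67 against 2.36 for Pitx1 in Barx1 intestine over intestine.

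Gata3, a zinc finger factor of the pylorus, departed from this course: it was not called between stomach and intestine, and it rose in Barx1 intestine over both. It read 5.88 and 5.75 on the stomach arrays, 6.19 and 5.84 on the intestine arrays, and 7.50 and 8.01 on the Barx1 intestine arrays. The control groups overlapped, and both Barx1 intestine arrays lay above all 4 control arrays. Stomach differed from intestine by -0.20 (95% interval -0.68 to 0.29, adjusted p = 0.532 by limma). The rise in Barx1 intestine was 1.74 over intestine (95% interval 1.25 to 2.23, adjusted p = 0.0198), or 3.34-fold. It was 1.94 over stomach (95% interval 1.45 to 2.42, adjusted p = 0.0143), the seventh largest excess of Barx1 intestine over stomach. The Barx1 intestine replicates differed by 0.51, more than in either control group.

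The size of the Gata3 rise was steadier than its call. Against intestine it ranged from 1.49 to 1.99 in the 6 fits without 1 array, and it was past the threshold in 2 of them. Leaving out either stomach array, intestine replicate 2 or Barx1 intestine replicate 2 ended the call (adjusted p = 0.0637, 0.0606 and 0.0541). Against stomach, leaving out stomach replicate 1, stomach replicate 2 or Barx1 intestine replicate 1 did so (adjusted p = 0.0922, 0.118 and 0.0583), with differences from 1.68 to 2.19 over the 6 fits. Gata3 is also a gene of T cells. The T cell receptor genes Cd3e and Cd3g read 4.60 to 5.02 and 2.92 to 3.21 over all arrays. In Barx1 intestine against intestine they differed by 0.15 and 0.20 without a call (adjusted p = 0.565 and 0.126 by limma). Cd3g was called higher in stomach than in intestine, by 0.25 (adjusted p = 0.0447). Cd3g lay below the lower quartiles of the arrays and Cd3e near them. Both may be background, so their readings say little about T cells. Of 10 leukocyte markers 0 rose and 2 fell in Barx1 intestine against intestine (list median -1.89), where 2.12% of all genes were called lower. The 2 were the macrophage genes C1qa and Aif1, which fell by 2.53 and 2.41 on the log2 scale (adjusted p = 0.0413 and 0.0437 by limma). Each was past the threshold in 1 of 6 fits without 1 array.

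Osr1, a zinc finger gene of foregut mesoderm, marked the stomach but did not pass the test in Barx1 intestine over intestine. It read 8.87 and 8.86 on the stomach arrays, 7.60 and 7.87 on the intestine arrays, and 8.06 and 8.08 on the Barx1 intestine arrays. The stomach arrays stood above all others, and the Barx1 intestine arrays lay just above both intestine arrays. Stomach exceeded intestine by 1.14 (SE 0.10, adjusted p = 0.00397 by limma), a call kept in all 6 fits without 1 array. Barx1 intestine differed from intestine by 0.33 (95% interval 0.09 to 0.57, adjusted p = 0.115), and by -0.80 from stomach (95% interval -1.04 to -0.56, adjusted p = 0.0187). The difference from stomach kept its size, -0.81 to -0.79, in the fits without 1 array, and its call ended without either stomach array (adjusted p = 0.119 and 0.144) or either Barx1 intestine array (adjusted p = 0.109 and 0.0844).

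**Figure D4:**
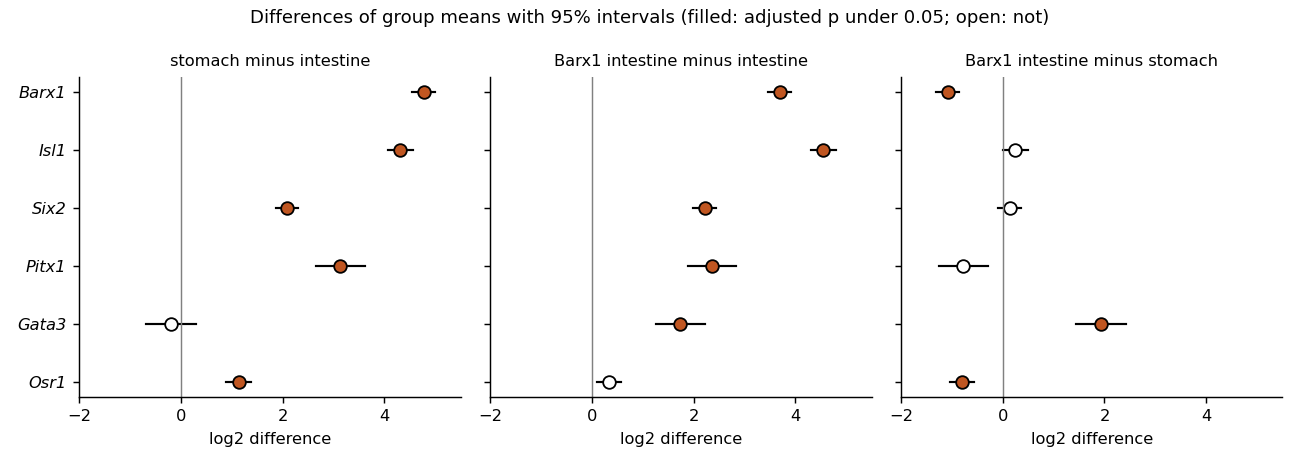
Log2 differences of group means with 95% intervals of the limma fit for the 6 genes in the 3 comparisons, filled where the adjusted p was under 0.05. Isl1 and Six2 have intervals that include 0 between Barx1 intestine and stomach, Gata3 lies at 1.94 above stomach and Osr1 at -0.80 below it.

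The groups were fully separated for 5 of the 6 genes between stomach and intestine, for 6 between Barx1 intestine and intestine, and for 6 between Barx1 intestine and stomach. Over all genes the shares were 64.1%, 52.4% and 58.0%, so separation of the arrays alone was common. That of Six2 from stomach was very narrow, with 8.043 on Barx1 intestine replicate 1 against 8.041 on stomach replicate 1. Ranks of the signed difference describe the sizes. In stomach over intestine Barx1, Isl1, Pitx1, Six2 and Osr1 ranked 1, 2, 10, 25 and 85 of all genes. In Barx1 intestine over intestine Isl1, Barx1, Pitx1, Six2 and Gata3 ranked 1, 2, 5, 7 and 15, and Osr1 ranked 569. The rise of Barx1 in that comparison was set by the design.

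No other listed regulator of stomach and pylorus mesenchyme was called higher in both comparisons with intestine. Of 13 listed genes 12 were measured. In stomach over intestine 4 were higher and 1 lower, where 8.86% of all genes were called higher and 8.09% lower. The list median was 0.14 against 0.019 over all genes. Nkx2-5, a homeobox gene of the pylorus and spleen, was higher by 1.02 (adjusted p = 0.0180), the secreted Wnt inhibitor gene Sfrp2 by 1.35 (0.0134), the nuclear receptor gene Nr2f2 by 0.94 (0.00194) and Tcf21 by 0.51 (0.0452), all adjusted p by limma. Foxf2, a forkhead gene of the Hedgehog response in gut mesenchyme, was lower by a difference of -1.40 (adjusted p = 0.00261). Without 1 array, Nr2f2 and Foxf2 kept their calls in 6 of 6 fits, Sfrp2 in 4, Nkx2-5 in 3 and Tcf21 in 2. Without either stomach array the list held 1 higher and 1 lower.

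In Barx1 intestine over intestine 0 of these 12 genes were higher and 3 lower by limma, where 1.86% of all genes were called higher and 2.12% lower. The list median was 0.020 against 0.022 over all genes. Those that fell were Grem1, a secreted BMP antagonist (-1.36, adjusted p = 0.0446), Bmp4, a BMP ligand (-1.03, adjusted p = 0.0103) and Foxf2 (-0.69, adjusted p = 0.0308). Grem1 and Foxf2 lost their calls in all 6 fits without 1 array, and Bmp4 in 3, namely without either stomach array and without Barx1 intestine replicate 1. Nkx2-5 read 6.76 and 6.61 on the stomach arrays, 5.80 and 5.53 on the intestine arrays, and 6.04 and 6.50 on the Barx1 intestine arrays. Its difference from intestine was 0.61 and did not pass (adjusted p = 0.114). Sfrp2 was higher than in intestine by 0.74, also without a call (adjusted p = 0.107 by limma). Sox9 read 6.58 to 6.96 on all arrays and none of its differences passed (adjusted p from 0.379 to 0.753). Nkx3-2, whose locus carries the Cre, read 4.70 to 5.12 on all arrays, and none of its differences passed (adjusted p from 0.198 to 0.870). Its readings lay near the lower quartiles of the arrays and may be background, so the lack of a call says little.

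Against stomach, Barx1 intestine had lower Nr2f2 (-0.92, adjusted p = 0.00832 by limma) and Bmp4 (-0.78, adjusted p = 0.0158) and higher Foxf2 (0.71, adjusted p = 0.0256). Over all genes 2.64% were called lower and 2.56% higher in this comparison. The list median was -0.40 against -0.00077 over all genes. Without either stomach array, or without Barx1 intestine replicate 1, 0 of these calls were left.

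Of 24 listed close relatives of the 6 genes and partners of their proteins, 22 were measured. In stomach over intestine the list median was 0.20 against 0.019 over all genes. There 5 of the 22 were higher and 0 lower, where 8.86% of all genes were called higher and 8.09% lower. They were Ldb2, a cofactor of LIM-homeodomain proteins (1.11, adjusted p = 0.0122 by limma), Zfpm2, a partner of GATA proteins (0.97, adjusted p = 0.00658), Gata6 (0.86, adjusted p = 0.00965), Six5 (0.57, adjusted p = 0.0103) and Eya4, of the Eyes absent family (0.56, adjusted p = 0.00753). Eya4 read 3.75 to 4.39 on all arrays, below their lower quartiles, and may be background. All 5 lost their calls without either stomach array. In Barx1 intestine over intestine Zfpm2 was the 1 gene that rose (0.65, adjusted p = 0.0418), where 1.86% of all genes were called higher. Zfpm2 had a call in 1 of 6 fits without 1 array. The list median was 0.073 against 0.022.

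Barx2, Isl2 and Osr2, the closest relatives of Barx1, Isl1 and Osr1, were not called in any comparison. Barx2 read 4.85 to 5.12 on all arrays, Isl2 6.08 to 6.30 and Osr2 3.88 to 4.29. Barx2 lay near the lower quartiles of the arrays and Osr2 below them, so both may be background. Of the GATA genes, Gata2 read 7.18 and 6.74 on the intestine arrays against 7.51 and 7.60 with Barx1, without a call. Gata6 was lower in Barx1 intestine than in stomach (-1.33, adjusted p = 0.0120), where Gata3 was higher. Ldb2 (-1.09), Lmo4 (-0.56), Six5 (-0.45) and Eya4 (-0.37) were lower in that comparison as well, with adjusted p from 0.0289 to 0.0423, and the list median was -0.15. Of the 22 measured relatives and cofactors 5 were thus lower and 0 higher, where 2.64% of all genes were called lower and 2.56% higher. None of these 5 calls held without either stomach array or either Barx1 intestine array. Without stomach replicate 2, however, no gene of the series kept a call in this comparison.

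**Figure D5:**
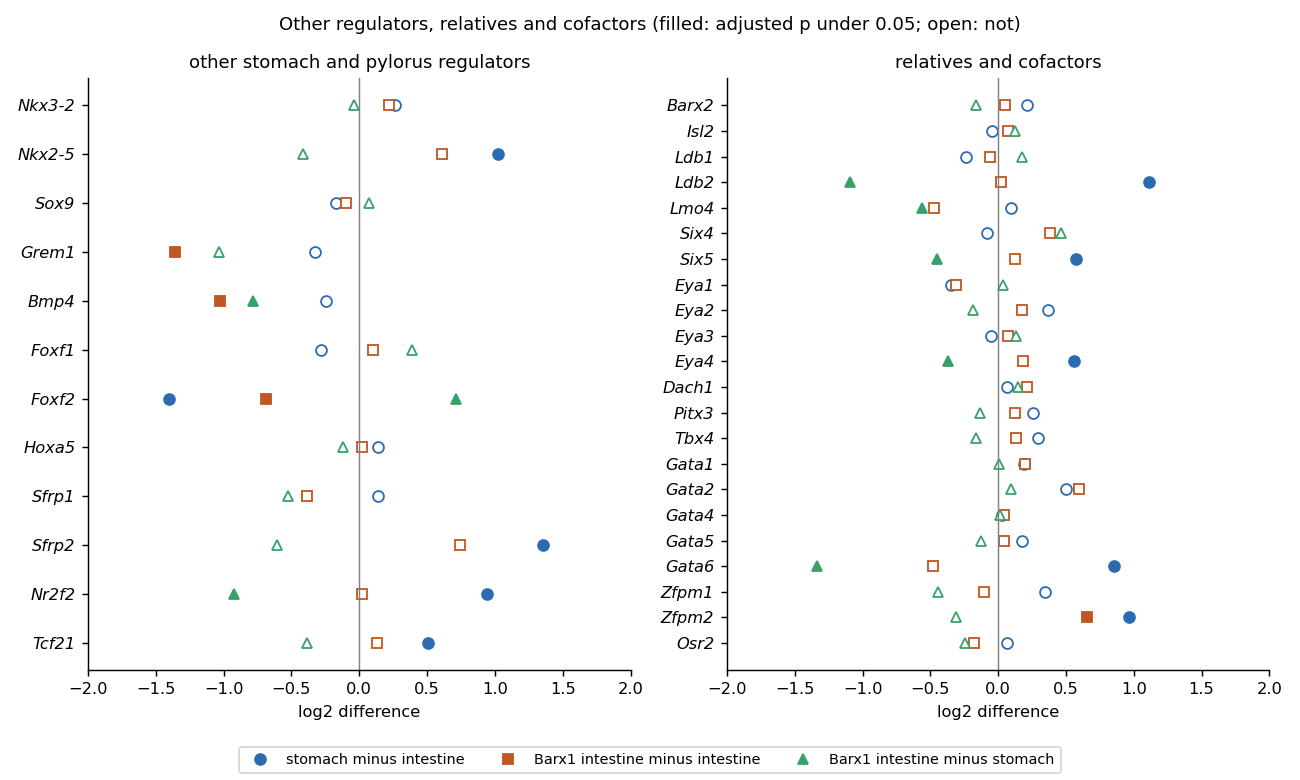
Log2 differences of other stomach and pylorus regulators (left) and of relatives and cofactors of the 6 genes (right) in the 3 comparisons, filled where the adjusted p was under 0.05. Most symbols are open, and the filled squares, Barx1 intestine over intestine, are Grem1, Bmp4, Foxf2 and Zfpm2.

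For each of the 6 genes the 3 genes nearest in pattern were found among genes other than these 6, by the Euclidean distance between centred log2 values over the 6 arrays, as a description. Of those other genes Fap, a fibroblast surface protease gene, was nearest to both Barx1 (distance 0.92) and Isl1 (1.53). Mgp (1.83) and Esm1 (2.26) came next for Barx1, and Avpr1a (2.51) and Esm1 (2.61) for Isl1. Among the 6 themselves, Pitx1 and Six2 were the closest pair, at 1.28. Barx1 and Isl1 lay 1.35 apart, nearer than Fap was to Isl1, and Pitx1 lay 1.77 from Barx1 and 2.22 from Isl1. The rise of Barx1 with the transgene, set by the design, enters all of its distances. Six2 was nearest to Ccn3 (0.44), Nrk (0.47) and Hoxa9 (0.75), and Pitx1 to Esm1 (0.74), Ccn3 (1.04) and Nrk (1.07). Gata3 had different neighbours, the homeobox genes Dlx2 (0.74) and Prrx2 (0.99) and the protease inhibitor gene Tfpi2 (0.95). Dlx2 read 7.45 and 7.27 on the stomach arrays, 8.01 and 7.66 on the intestine arrays, and 9.15 and 8.93 on the Barx1 intestine arrays, highest in the last group like Gata3. Osr1 was nearest to Aqp1 (0.17), Gas2 (0.22) and Cdc25b (0.23). Its small differences make short distances easier to reach than for Barx1.

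Some markers of mesenchyme differed in both comparisons that involve stomach, and 0 of 10 were called in Barx1 intestine over intestine. In that last comparison the list median was -0.21, and Des came closest to a call (-0.75, adjusted p = 0.0505 by limma). Of 10 such genes 3 were higher in stomach than in intestine and 0 lower, where 8.86% of all genes were called higher. They were Col1a2 (1.98), Pdgfra (1.63) and Col1a1 (0.72), with adjusted p of 0.00326, 0.00426 and 0.00940 by limma. The other 7, among them the smooth muscle genes Acta2, Tagln, Actg2 and Myh11 (0.05, -0.03, -0.02 and 0.15), were not called. Col1a2 and Pdgfra kept their calls in all 6 fits without 1 array, and Col1a1 lost its call without either stomach array. Against stomach, 4 were lower in Barx1 intestine and 0 higher, where 2.64% of all genes were called lower. They were Col1a2 (-2.46), Des (-1.16), Pdgfra (-1.07) and Col1a1 (-1.01), with adjusted p of 0.00832, 0.0187, 0.0240 and 0.0128 by limma, while Vim read 14.02 to 14.14 on all arrays. These calls ended without either stomach array and without Barx1 intestine replicate 1, and that of Des also without replicate 2 of that group. The part of these markers in the differences of the 6 genes from stomach was not tested.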

How the data were processed

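RNA of cultured cells was measured on 6 Affymetrix 3′ arrays, 2 per group, with groups and replicate numbers taken from the labels. The authors deposited 1 value per probe set and array, made with RMA, which the submitters' processing notes name without a version. RMA brings arrays to a common distribution, so a change shared by most genes would be removed. That the deposited values are log2 was read from their range, 2.48 to 14.7.

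Of 22690 probe sets, 20380 named 1 gene and entered. The 691 with several names, and the 1619 controls or probe sets without a name, were left out. Symbols were those of the platform annotation, and 20351 matched RefSeq by gene identifier. Each gene took its probe set with the highest mean. Group means were fitted with limma 3.58.1 (lmFit, eBayes) in R 4.3.3, with 3 residual and 2.58 prior degrees of freedom. Benjamini-Hochberg adjustment ran over 12393 genes in each comparison, with a threshold of 0.05. The fit was tested on simulated data. SE and 95% intervals come from it. Figures were drawn with matplotlib 3.10.9.

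The genes, lists and tests were chosen with earlier results of these data known. Genes named were the 6, every called gene of the lists of other regulators and of relatives, Nkx3-2, Nkx2-5 and Sox9, and the 3 nearest in pattern to each of the 6. Marker genes, Barx2, Isl2, Osr2 and Gata2 were named after their values were seen. Alternatives changed the dim filter, normalization, probe set rule, variance model, arrays fitted, replicate block and threshold. No scanner files were used here, so background correction was not varied.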

Additional observations from a re-analysis of the deposited data

How the results depend on the processing

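Of the log2 differences of the 6 genes in 3 comparisons, none changed sign under any alternative run. In settings that kept all replicates, 137 values stayed on their side of the threshold, 5 lost a call and 2 gained one. In fits without 1 array, which count the fit without the third group 2 times, 90 stayed, 16 lost a call and 2 gained one.

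For Barx1 intestine over intestine, Gata3 (1.74) lost its call with only the 4 arrays compared (adjusted p = 0.0637) and at a threshold of 0.01. At that threshold Barx1 (-1.08), Gata3 (1.94) and Osr1 (-0.80) against stomach lost theirs, leaving 0 of the 6 genes by limma, with 4 at an unadjusted p under 0.05. Pitx1 against stomach gained a call with the mean of probe sets (-0.66) and with only 4 arrays (-0.77).

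Without 1 array, Pitx1 ranged from 2.07 to 2.65 and Gata3 from 1.49 to 1.99 over intestine, where 3 to 5 of the 6 genes were called, 3 without Barx1 intestine replicate 2. Against stomach, Barx1 ranged from -1.15 to -1.01, Pitx1 from -0.86 to -0.68, Gata3 from 1.68 to 2.19 and Osr1 from -0.81 to -0.79, with 0 to 4 called (0 by limma without either stomach array or without Barx1 intestine replicate 1, each time with 4 at an unadjusted p under 0.05).

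Counts over all genes moved more. Stomach over intestine gave 2100 calls, 281 to 1692 without 1 array, 512 at 0.01 and 276 with a log2 difference of 1 or more. Barx1 intestine over intestine gave 493, 50 to 466 without 1 array, 1037 with a variance trend, 50 with 4 arrays, 40 at 0.01 and 129 with the fold minimum. Barx1 intestine against stomach gave 644, 0 to 727 without 1 array (0 by limma without stomach replicate 2, where 1906 had an unadjusted p under 0.05), 1189 with a trend, 11 at 0.01 and 123 with the fold minimum.

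The numbers were not shown to pair the arrays: over genes, replicate differences correlated at -0.216 between stomach and intestine, -0.0615 between stomach and Barx1 intestine and 0.203 between intestine and Barx1 intestine. With the replicate number as a block the calls were 1508, 267 and 337, with 5, 5 and 3 of the 6 genes, and with stomach numbers crossed, added after seeing the data, 1879, 570 and 383.
The cause of these changes was not tested, beyond fewer arrays or a stricter threshold.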
